A study of Mus musculus with 12 samples.

Results

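The ETS factors are transcription factors that share a DNA-binding domain, and 10 of their genes are described here by the Mediator peaks that surround them: the PEA3 group (Etv1, Etv4 and Etv5), Ets1 and Ets2, the ternary complex factors (Elk1, Elk3 and Elk4) and the repressors Etv6 and Erf. They are 10 of 21887 protein-coding genes. Mediator is a large complex that carries signals of enhancer-bound proteins to the polymerase, and its subunits MED1 and MED24 were mapped by ChIP-seq. For each subunit the peaks of its 4 libraries were merged where they overlapped by at least 1 bp, and a merged region belonged to a member if that gene's span was the nearest protein-coding one within 100 kb (GRCm38, the build that mm10 stands for). This gave 82 of 65291 MED1 regions and 92 of 66123 MED24 regions. The compared groups were E14tg2a mouse embryonic stem cells (129SV background) treated with 250 nM 4-hydroxytamoxifen (4OHT) for 2 h, and the same cells untreated (0 h). All groups stably carried a cRAF-ErT2 cassette, through which 4OHT switches on RAF and then ERK, and all had been grown in serum and LIF with 2 µM Chir99021, an inhibitor of the kinase GSK3, which was replaced 24 h before treatment by PD173074 at 250 nM, an inhibitor of FGF receptors. Each group held 1 library from clone a and 1 from clone b, precipitated with anti-MED1 or, for MED24, with anti-FLAG, in 8 libraries with peak lists. Vehicle-treated cells and cells lacking the cassette were not analysed here, so effects of 4OHT, of time and of ERK cannot be told apart.

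ETS factors bind sites built around the core GGAA, and several of them are direct substrates of ERK. The ternary complex factors sit with SRF at promoters of immediate early genes and become activators when ERK phosphorylates them, with the Mediator subunit MED23 as a known contact of Elk1. Erf is a repressor that leaves the nucleus when ERK phosphorylates it, Etv6 is a repressor with a domain for self-association, and Ets1 and Ets2 carry an ERK site beside their pointed domain. Of the PEA3 genes, Etv4 and Etv5 are classical transcriptional targets of FGF and ERK signalling, repressed at rest by Cic.

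Promoter windows of 300 bases, running from 250 before to 50 after an annotated start (RefSeq, GRCm38.p6), were at hand for 8 of the members, in 12 windows. Of these, 7 are shown: 1 each of Etv1, Ets2, Elk1, Elk3, Etv6 and Erf, and the Elk4 window that holds a longer ETS site. Over each of these windows a Mediator region differed in standing between 2 h and 0 h in at least 1 subunit. Each is written 5′ to 3′ on the strand of its gene, and capitals mark the ETS core GGAA or, where the core lies on the opposite strand, its complement TTCC.
Etv1 promoter, chr12:38779832-38780131, plus strand: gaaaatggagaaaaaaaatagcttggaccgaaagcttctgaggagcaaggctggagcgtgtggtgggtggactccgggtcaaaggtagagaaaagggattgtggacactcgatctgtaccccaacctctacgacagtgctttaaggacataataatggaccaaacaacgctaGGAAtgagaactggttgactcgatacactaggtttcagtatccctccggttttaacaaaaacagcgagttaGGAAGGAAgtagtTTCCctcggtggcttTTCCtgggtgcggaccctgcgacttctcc
Ets2 promoter, chr16:95702157-95702456, plus strand: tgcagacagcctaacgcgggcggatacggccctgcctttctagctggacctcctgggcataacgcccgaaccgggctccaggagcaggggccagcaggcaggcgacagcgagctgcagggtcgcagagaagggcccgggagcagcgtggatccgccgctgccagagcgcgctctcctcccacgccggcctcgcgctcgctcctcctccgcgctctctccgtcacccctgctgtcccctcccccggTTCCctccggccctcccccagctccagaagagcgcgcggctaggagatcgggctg
Elk1 promoter, chrX:20950559-20950858, minus strand: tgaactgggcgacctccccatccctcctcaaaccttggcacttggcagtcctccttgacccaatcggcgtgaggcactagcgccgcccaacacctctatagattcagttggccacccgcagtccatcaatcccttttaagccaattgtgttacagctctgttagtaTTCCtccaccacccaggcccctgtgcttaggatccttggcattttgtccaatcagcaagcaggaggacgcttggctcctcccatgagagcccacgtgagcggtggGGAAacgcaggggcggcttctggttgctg
Elk3 promoter, chr10:93311110-93311409, minus strand: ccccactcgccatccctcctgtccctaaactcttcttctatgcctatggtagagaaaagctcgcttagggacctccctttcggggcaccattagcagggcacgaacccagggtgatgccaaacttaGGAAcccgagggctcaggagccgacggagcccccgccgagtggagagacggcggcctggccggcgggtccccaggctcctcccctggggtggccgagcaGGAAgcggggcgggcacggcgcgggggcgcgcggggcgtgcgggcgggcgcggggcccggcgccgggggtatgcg
Elk4 promoter, chr1:132007370-132007669, plus strand: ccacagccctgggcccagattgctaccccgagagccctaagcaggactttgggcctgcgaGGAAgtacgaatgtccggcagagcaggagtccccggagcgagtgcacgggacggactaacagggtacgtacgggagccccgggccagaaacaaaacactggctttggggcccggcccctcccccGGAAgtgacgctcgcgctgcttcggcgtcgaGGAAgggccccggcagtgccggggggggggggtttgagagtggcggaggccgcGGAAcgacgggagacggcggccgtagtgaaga
Etv6 promoter, chr6:134035450-134035749, plus strand: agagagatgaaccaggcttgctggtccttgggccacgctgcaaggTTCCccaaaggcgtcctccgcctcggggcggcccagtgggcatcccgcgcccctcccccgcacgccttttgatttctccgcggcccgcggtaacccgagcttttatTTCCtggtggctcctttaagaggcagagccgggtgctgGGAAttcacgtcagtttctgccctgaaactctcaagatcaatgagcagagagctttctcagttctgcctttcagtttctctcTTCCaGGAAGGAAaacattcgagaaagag
Erf promoter, chr7:25250709-25251008, minus strand: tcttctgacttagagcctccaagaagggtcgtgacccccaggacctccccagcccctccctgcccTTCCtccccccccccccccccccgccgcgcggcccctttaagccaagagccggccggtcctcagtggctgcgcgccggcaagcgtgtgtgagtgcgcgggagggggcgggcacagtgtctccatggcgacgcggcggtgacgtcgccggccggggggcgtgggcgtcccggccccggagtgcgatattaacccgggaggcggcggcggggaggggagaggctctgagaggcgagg
The core was found on one strand or the other in 11 of the 12 windows and in at least 1 window of all 8 genes, where 95.8% of all 21263 promoter windows of protein-coding genes held it. The member share was thus no higher than elsewhere. The longer ETS site CCGGAAG, which contains the core, was in 1 window, that of Elk4 starting at chr1:132007370, with its first base at position −68 counted from that window's own start site, against 11.6% of all windows. The AP-1 site TGANTCA was in 0 of the 12 windows (6.99% of all windows) and the CArG box, the site of SRF, in 0 (1.52% of all windows), with both strands searched. Of the 12 windows, 10 held a MED1 peak in all 4 libraries and 10 a MED24 peak in all 4, where 41.7% and 39.3% of all windows did. These windows are not separate places: the 3 of Elk4 lie under 1 region in each subunit, and so do the 2 of Etv5.

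More regions at these genes were called at 2 h than at 0 h. In MED1, 61 and 62 member regions were called at 2 h in clones a and b, against 37 and 34 at 0 h. In MED24 the numbers were 60 and 66 at 2 h, against 45 and 42 at 0 h. Both 2 h libraries stood above both 0 h libraries for each subunit. The means were 61.5 ± 0.707 at 2 h and 35.5 ± 2.12 at 0 h in MED1, and 63.0 ± 4.24 at 2 h and 43.5 ± 2.12 at 0 h in MED24 (SD, n = 2 clones each). The differences of 26 and 19.5 regions each gave p = 0.333 in an exact two-sided permutation test over libraries, which is the smallest p that 2 against 2 libraries allow. Bases covered by peaks at members went the same way, with 45.2 ± 3.22 kb at 2 h and 33.5 ± 0.302 kb at 0 h in MED1, and 42.1 ± 3.98 kb at 2 h and 31.5 ± 1.73 kb at 0 h in MED24 (SD, n = 2 each, exact permutation p = 0.333 for both). The lists themselves were longer at 2 h: MED1 lists held 43949 and 47305 peaks at 2 h against 38668 and 37483 at 0 h, and MED24 lists 42445 and 48931 at 2 h against 41689 and 38398 at 0 h. In lists held to 20000 peaks a library, the differences shrank to 3 regions and 4.37 kb in MED1 and to 5.5 regions and 5.46 kb in MED24, and without Etv6 they were 16.5 regions and 5.06 kb in MED1 and 12.5 regions and 5.64 kb in MED24. With distance taken to the nearest transcription start site they were 13.5 regions and 1.84 kb in MED1 and 8.5 regions and 1.61 kb in MED24. Members took 0.148% and 0.138% of the called MED1 regions at 2 h, against 0.102% and 0.0972% at 0 h. For MED24 these shares were 0.148% and 0.140% at 2 h, against 0.113% and 0.115% at 0 h.

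**Figure D1:**
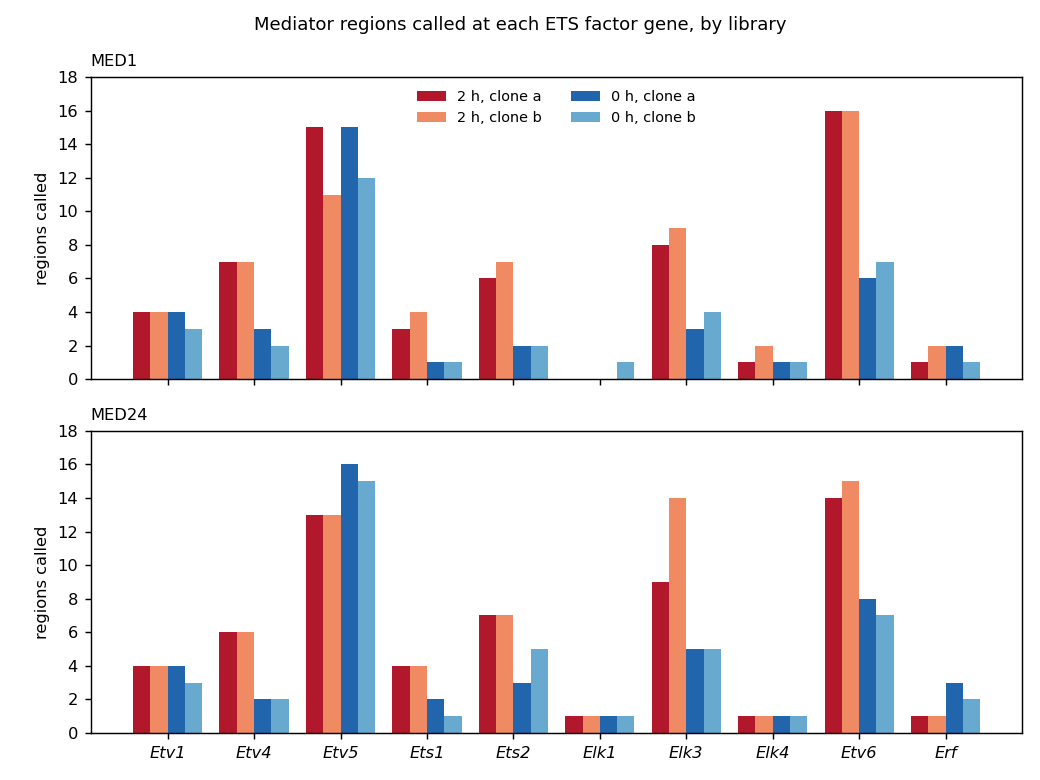
Bars give the number of MED1 (upper panel) and MED24 (lower panel) regions called at each of the 10 ETS factor genes, with the 2 h libraries of clones a and b in red tones left of the 0 h libraries in blue tones. Etv4, Etv6, Elk3, Ets1 and Ets2 have more called regions in both 2 h libraries than in either 0 h library of both subunits, while Etv5 has fewer in MED24 at 2 h.

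Regions with a peak at 2 h in both clones and at 0 h in neither are called gained, those with the opposite pattern lost, and those with a peak in every library of the subunit retained. With 2 libraries a group there is no test per region, and an uncalled region is one without a peak past the authors' threshold, not one without Mediator. Of 82 MED1 regions at members, 27 were gained (32.9%), where 17.6% of all MED1 regions were. Another 4 were lost (4.88%, against 6.90% of all), and 24 were retained, where 30.9% of all were. Of 92 MED24 regions, 23 were gained (25.0%, against 16.0% of all), 5 were lost (5.43%, against 8.83% of all) and 27 were retained (32.6% of all were). The excess of gained regions depended on the length of the lists. When each library was limited to its 20000 highest ranked peaks, 8 of 48 MED1 regions at members were gained (16.7%, against 18.2% of all) and 8 of 44 MED24 regions (18.2%, against 17.6% of all). With 10000 peaks the shares were 6 of 22 (27.3%, against 20.4% of all) in MED1 and 7 of 26 (26.9%, against 20.8% of all) in MED24. Without Etv6, 16 of 62 MED1 regions (25.8%) and 17 of 70 MED24 regions (24.3%) were gained in the deposited lists. Both shares were still above those over all regions. With 20000 peaks and no Etv6, 5 of 36 MED1 regions were gained (13.9%, against 18.2% of all). For MED24 it was 5 of 35 (14.3%, against 17.6% of all), so both shares lay below those of all regions. With 10000 peaks and no Etv6, 4 of 18 MED1 regions were gained (22.2%, against 20.4% of all). In MED24, 4 of 20 were gained (20%, against 20.8% of all).

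**Figure D2:**
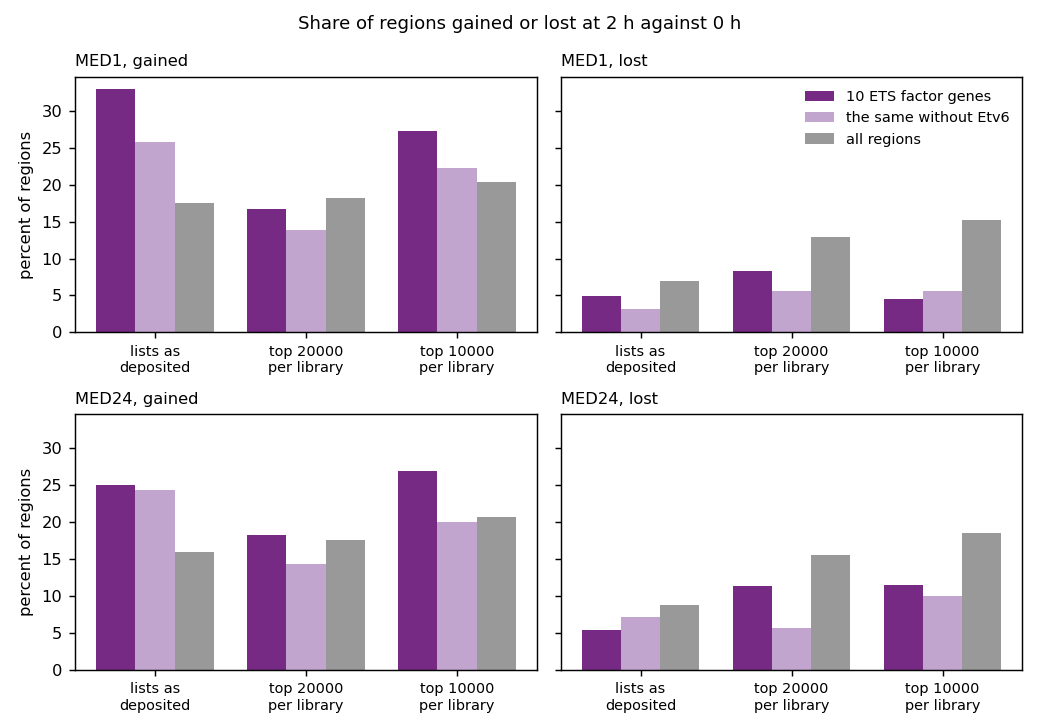
Bars give the percent of regions gained (left panels) and lost (right panels) for MED1 (upper) and MED24 (lower), at the 10 genes, at the same genes without Etv6 and over all regions, for the lists as deposited and for the 20000 and 10000 highest ranked peaks per library. There are no error bars because each share is made over 4 libraries. Members stand above all regions in the deposited lists, at 32.9% against 17.6% gained in MED1, and below them in MED1 with 20000 peaks, at 16.7% against 18.2%.

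By gene, 6 of 10 members had more gained than lost MED1 regions, where 31.0% of genes with a region did, and 5 of 10 had more gained than lost MED24 regions (28.6% of genes did). At least 1 gained region was found at 7 of 10 members in each subunit, where 35.8% of genes in MED1 and 35.1% in MED24 had one. None had more lost than gained in MED1 (10.3% of genes did), and 2, Etv5 and Erf, did in MED24 (13.1% of genes did). The members carry unequal numbers of regions, so these shares are not over like genes: Etv6 and Etv5 have 20 MED1 regions each, while Elk1 has 1 and Elk4 has 2.

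Among the PEA3 genes, which ERK signalling is known to induce, Etv4 had gained regions in both subunits, Etv1 stood higher at its promoter and at a distant upstream region, and Etv5 had about as many lost as gained regions, with 9 of 20 MED1 and 10 of 23 MED24 regions retained. Levels are given as percentiles, the place of a region counted from the lowest of those called in that library, as a percent of them. Tied regions took the mean of their places. The order is by the authors' −log10 p for MED1 and by their score for MED24. Since lists differ in length, a shift in percentile describes standing within a list and is not a measured change in binding. In bulk chromatin, more cells with Mediator at a site and more Mediator per cell cannot be told apart.

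Etv4 covered 4.77 and 5.29 kb of MED1 peaks at 2 h, against 1.36 and 1.62 kb at 0 h. Its highest ranked region at 2 h, chr11:101776684-101777570 inside the gene, was gained in both subunits: it lay at percentiles 97.5 and 97.6 in MED1 and 98.6 and 98.1 in MED24 at 2 h, with no peak at 0 h in either clone. The authors' fold enrichment there was 22.7 and 18.9 in the MED1 2 h libraries. A second gained region inside the gene (chr11:101778031-101778567) stood near the middle of the lists, at 54.2 and 55.0 in MED1 and 65.7 and 52.2 in MED24. A region 0.556 kb outside the gene span (chr11:101768622-101769191) was gained at 67.8 and 61.2 in MED1 and at 70.2 and 66.6 in MED24. Both regions retained at Etv4 stood higher at 2 h in both clones and both subunits. At chr11:101784095-101786072 the percentiles were 82.3 and 78.5 at 2 h against 56.2 and 47.9 at 0 h in MED1, and 82.6 and 83.8 at 2 h against 57.5 and 34.0 at 0 h in MED24. At chr11:101772037-101773103 they were 93.9 and 96.2 at 2 h against 85.9 and 77.5 at 0 h in MED1, and 97.8 and 97.9 at 2 h against 93.5 and 88.2 at 0 h in MED24. No lost region was found at Etv4 in either subunit, and chr11:101776684-101777570 was gained in both subunits also with 20000 and with 10000 peaks per library.

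At Etv1, the promoter region chr12:38778201-38780857, which covers the Etv1 window printed above, lay at 95.7 and 95.5 in MED1 at 2 h against 88.9 and 83.1 at 0 h. In MED24 it lay at 98.6 and 98.96 at 2 h against 97.0 and 95.9 at 0 h. An upstream region centred at −50.01 kb from the start (chr12:38729571-38730571) showed the same order, at 93.5 and 97.0 at 2 h against 89.6 and 90.3 at 0 h in MED1 and at 98.4 and 99.1 at 2 h against 97.2 and 93.7 at 0 h in MED24. For both regions the 2 h libraries did not overlap the 0 h libraries in either subunit. The other retained MED1 region of Etv1, chr12:38784347-38784626 inside the gene, stood at 35.0 and 41.8 at 2 h against 53.1 and 40.2 at 0 h, lower in clone a and higher in clone b. One smaller region inside the gene (chr12:38788655-38789014) was gained in both, at 54.2 and 68.6 in MED1 and 33.6 and 53.1 in MED24. A further one (chr12:38806989-38807363) was lost in MED24, from percentiles 71.3 and 70.6 at 0 h, and in MED1 it was called at 0 h in clone a alone, at 48.4.

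Etv5 differed from Etv4 in that its covered length was smaller at 2 h: 13.1 and 12.9 kb of MED1 peaks at 2 h against 17.0 and 16.1 kb at 0 h, and 9.603 and 10.6 kb of MED24 peaks at 2 h against 14.3 and 13.6 kb at 0 h. Its 20 MED1 regions were 2 gained, 2 lost, 9 retained and 7 called in some other pattern, and its 23 MED24 regions 1 gained, 2 lost, 10 retained and 10 in another pattern. The strongest stretch lay inside the gene, about 35.1 kb from the start. There, chr16:22401913-22404655 stood at 99.03 and 99.3 at 2 h against 94.6 and 98.7 at 0 h in MED1, and at 98.8 and 98.9 at 2 h against 98.6 and 98.9 at 0 h in MED24. Less than 10 kb away, chr16:22408757-22410614 was lost in both subunits, with no peak at 2 h and percentiles of 58.3 and 75.7 at 0 h in MED1 and of 75.2 and 87.6 at 0 h in MED24. The second lost region, chr16:22395138-22395517, lay at 45.5 and 0.111 at 0 h in MED1 and at 75.4 and 32.5 at 0 h in MED24. Next to the lost stretch, chr16:22411181-22413649 was retained but stood lower, at 85.6 and 90.4 at 2 h against 96.7 and 97.6 at 0 h in MED1 and at 95.8 and 95.4 at 2 h against 98.1 and 98.5 at 0 h in MED24. Upstream of the gene, chr16:22442146-22442558 stood at 27.9 and 16.2 at 2 h against 49.6 and 50.6 at 0 h in MED1, and at 51.7 and 68.3 at 2 h against 72.3 and 70.5 at 0 h in MED24, lower at 2 h in both clones of both subunits. The same held at chr16:22428270-22429917, with shifts of −16.1 and −9.15 percentile points in MED1 and −23.0 and −6.51 in MED24. Of the MED24 regions, chr16:22400098-22400741 (−23.0 and −14.8) and chr16:22398158-22398953 (−10.2 and −10.7) also stood lower in both clones. In the other direction, chr16:22416220-22417949 stood higher in both clones in MED1 (4.13 and 16.5), and in MED24 its shift was −20.6 in clone a and 13.5 in clone b. Of the 9 retained MED1 regions, 5 stood lower at 2 h in both clones and 2 stood higher, where 43.8% and 24.7% of all retained MED1 regions did. Of the 10 retained MED24 regions, 6 stood lower and 2 higher, where 36.4% and 34.5% of all did. The region over the promoter windows of Etv5 (chr16:22438078-22440813) stayed in place, at 78.6 and 79.8 at 2 h and 78.6 and 76.3 at 0 h in MED1. The place gained in both subunits, chr16:22434216-22434908, was weak, at 32.9 and 31.9 in MED1, and its MED24 counterpart lay at 24.3 and 58.1. The other gained MED1 region, chr16:22389040-22389503, lay at 60.5 and 44.8, and in MED24 was called at 2 h in clone a alone, at 54.4.

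Ets1 and Ets2 are close relatives whose activity is raised by phosphorylation downstream of RAS and ERK, and neither had a lost region. At Ets2, 4 of 7 MED1 regions and 4 of 9 MED24 regions were gained, and 3 of these places were gained in both. The highest ranked lay upstream, centred at −19.97 kb from the start, at chr16:95682083-95682789, with percentiles of 93.2 and 96.8 in MED1 and of 91.4 and 83.8 in MED24 at 2 h and no peak at 0 h. A region 48.6 kb past the gene span (chr16:95769670-95769994) was gained at 51.7 and 51.1 in MED1 and 67.9 and 76.2 in MED24. Close to it, chr16:95766958-95767746 was retained near the top of the lists at both times, at 77.9 and 91.6 at 2 h against 89.6 and 90.5 at 0 h in MED1, with overlapping groups, and at 89.8 and 92.9 at 2 h against 94.0 and 94.5 at 0 h in MED24, lower at 2 h in both clones. Inside the gene, chr16:95716386-95716682 was gained at 35.0 and 51.9 in MED1 and at 50.1 and 19.9 in MED24. A further upstream region, chr16:95674590-95675050, was gained in MED1 at 61.1 and 48.6, while in MED24 that place was called in clone b alone, at 34.3 at 2 h and 44.8 at 0 h. The Ets2 promoter region, which covers the window printed above, was called in all 8 libraries, but clones and subunits did not go one way. In MED24 it stood at 67.2 and 47.3 at 2 h against 31.2 and 11.2 at 0 h, higher in both clones. In MED1 it stood at 65.5 and 18.6 at 2 h against 33.9 and 47.0 at 0 h, higher in clone a and lower in clone b.

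At Ets1 the regions were few and of middling rank. Of 5 MED1 regions 2 were gained and none was retained, and of 5 MED24 regions 3 were gained and 1 was retained. Inside the gene, chr9:32645548-32645846 was gained at 69.2 and 55.9 in MED1 and at 40.8 and 49.9 in MED24. Another, 44.2 kb outside the span (chr9:32591672-32592064), was gained at 30.6 and 20.7 in MED1 and at 7.29 and 13.4 in MED24, low in both lists. In MED24, chr9:32672053-32672395 was also gained, at 28.0 and 34.3. The retained MED24 region chr9:32695447-32696486 stood at 44.5 and 35.3 at 2 h against 21.8 and 18.3 at 0 h, with the groups apart, and in MED1 that place was called in 3 of 4 libraries. With 20000 peaks per library no region of Ets1 was gained in either subunit.

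**Figure D3:**
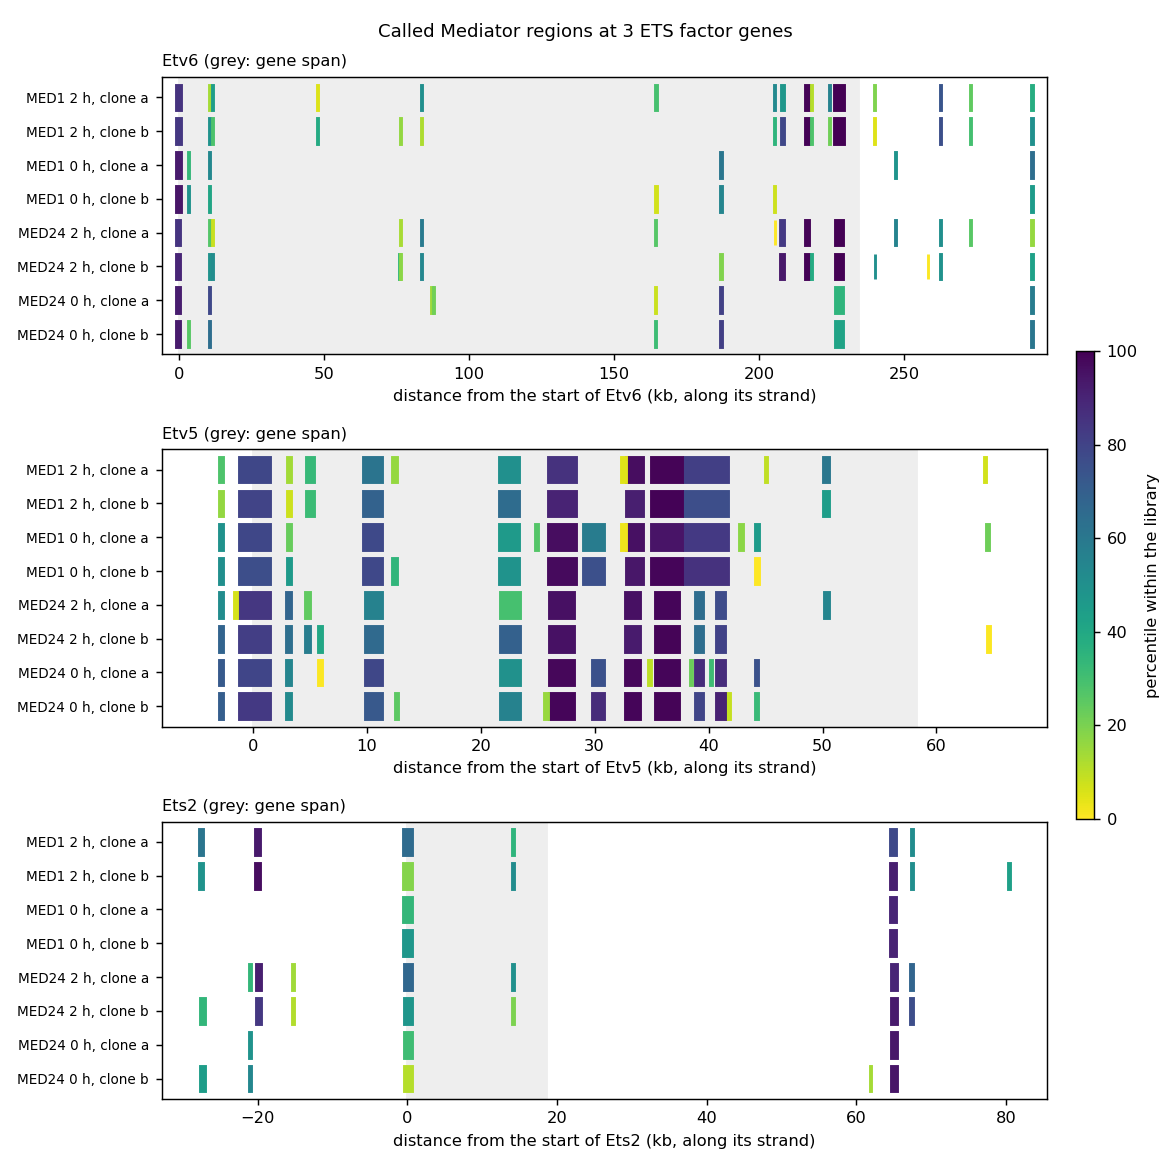
Called regions at Etv6, Etv5 and Ets2 in each library (rows, with 2 h libraries above 0 h libraries within a subunit), by distance from the gene's start along its strand in kb (horizontal axis). Each bar spans a merged region, widened where needed to be visible, its colour gives the region's percentile within the library, and the gene span is grey. At Etv6 the darkest bars near 216 and 228 kb appear in the 2 h libraries, and at Etv5 dark bars between 25 and 40 kb appear in all 8.

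The ternary complex factor genes had few regions apart from Elk3. Elk3, known as a repressor that ERK turns into an activator, had 4 gained of 11 MED1 regions and 4 gained of 17 MED24 regions, with 0 lost in MED1 and 1 lost in MED24. A region 12.6 kb outside its span, chr10:93323711-93324120, was gained in MED1 at percentiles 79.9 and 80.8. In MED24 that place lay at 85.8 and 87.6 at 2 h and, at 0 h, was uncalled in clone a and at 18.3 in clone b, so that both 2 h libraries were above both 0 h libraries. Of the gained regions of Elk3, 2 inside the gene were gained in both subunits (chr10:93271878-93272505 and chr10:93309538-93309932). The MED24 region over the Elk3 promoter window (chr10:93310974-93311395) was gained at 40.8 and 44.3, and outside the gene chr10:93328388-93328665 was gained in MED24 at 35.3 and 27.8. The region lost in MED24, chr10:93297859-93298214, lay at 11.1 and 39.2 at 0 h. The highest ranked region of Elk3 at 0 h, chr10:93364163-93366117, 53.0 kb outside the span, stood at 64.4 and 83.1 at 2 h against 81.5 and 78.2 at 0 h in MED1, with overlapping groups. Of the retained regions, chr10:93278475-93279538 stood lower in both clones in MED1 (−2.95 and −6.57 points) and chr10:93365274-93366065 higher in both clones in MED24 (14.5 and 5.28 points). In MED1 the promoter region was called in all 4 libraries, at 42.1 and 61.1 at 2 h against 0.198 and 64.0 at 0 h, and the clones did not agree in direction.

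Elk1, whose phosphorylation by ERK is the textbook switch of immediate early genes, had a single MED24 region, over the promoter window printed above (chrX:20950340-20950936). It was called in all 4 MED24 libraries, at percentiles 23.4 and 60.8 at 2 h against 3.87 and 0.680 at 0 h, so both 2 h libraries stood above both 0 h libraries. No MED1 peak was called over that window, and the 1 MED1 region of the gene, in its body, was called at 0 h in clone b alone, at 31.1. Elk4 had 1 strong region over its promoter windows (chr1:132007016-132008678), which includes the window with the CCGGAAG site. It stood at 91.9 and 96.7 at 2 h against 94.0 and 93.2 at 0 h in MED1, where the groups overlapped, and at 92.7 and 94.9 at 2 h against 89.6 and 83.9 at 0 h in MED24, where they did not. No region of Elk1 or Elk4 was gained or lost in either subunit.

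The repressor Etv6 held the largest number of gained MED1 regions of any member: 11 of 20 were gained, 2 were lost and 3 were retained, and of 22 MED24 regions 6 were gained, 0 were lost and 4 were retained. Covered length was 9.49 and 10.9 kb at 2 h against 3.30 and 3.70 kb at 0 h in MED1, and 8.11 and 9.80 kb at 2 h against 4.14 and 3.93 kb at 0 h in MED24. The highest ranked of the gained regions lay far from the promoter, in the 3′ part of the gene. The widest, chr6:134261583-134265169, lies 228 kb from the start. In MED1 it ranked 12 of 41291 regions in clone a and 31 of 44811 in clone b at 2 h, with authors' fold enrichments of 43.5 and 31.6, and had no peak at 0 h. In MED24 the same place (chr6:134261850-134264558) was called at both times, with ranks of 12 of 40452 and 53 of 47259 at 2 h against 25913 of 39864 and 21021 of 36479 at 0 h. The authors' scores there were 4705 and 4336 at 2 h against 86 and 104 at 0 h, and the within-clone shifts were 65.0 and 57.8 percentile points. The MED1 call of a gain and the MED24 call of a retained region thus refer to a site that stood near the top of both 2 h lists and low or uncalled in both 0 h lists.

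Closer to the start of Etv6, centred 216 kb from it, chr6:134251459-134252913 was gained in both subunits, ranking 347 and 225 in MED1 and 365 and 296 in MED24 at 2 h. Another place nearby, chr6:134243417-134244187, was gained at 47.2 and 78.8 in MED1 and at 83.4 and 93.7 in MED24. Within the gene, chr6:134119139-134119425 was gained at 50.5 and 12.3 in MED1 and at 59.2 and 53.5 in MED24. Beyond the gene's end, 27.9 kb outside the span, chr6:134298027-134298576 was gained at 73.6 and 76.0 in MED1 and at 50.7 and 49.3 in MED24. Other regions of Etv6 went the opposite way. One inside the gene, chr6:134222138-134223022, was lost in MED1, from 60.9 and 54.5 at 0 h, and in MED24 was uncalled in clone a and at 19.0 in clone b at 2 h, against 80.5 and 81.3 at 0 h. The promoter region, which covers the Etv6 window printed above and is as near to the predicted gene Gm46977 as to Etv6, stood lower at 2 h: 85.2 and 83.9 at 2 h against 92.8 and 94.3 at 0 h in MED1, and 85.1 and 89.7 at 2 h against 91.9 and 92.7 at 0 h in MED24. Larger differences of that direction in MED24 were at chr6:134046011-134046577, with 26.8 and 49.4 at 2 h against 78.3 and 64.2 at 0 h, and at chr6:134329629-134329985, with 15.8 and 43.0 at 2 h against 58.5 and 60.8 at 0 h. In MED1 both places stood lower in clone a and higher in clone b. The second lost MED1 region, chr6:134038889-134039292, lay at 33.5 and 49.2 at 0 h, and in MED24 was called at 0 h in clone b alone, at 26.0. Limited to 20000 peaks per library, MED1 showed 3 gained and 2 lost regions at Etv6 and MED24 3 and 3, with the 2 top ranked places gained in both.

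Erf, the repressor that ERK drives out of the nucleus, had no gained region in either subunit. Its promoter region chr7:25248790-25251513 was called in all 8 libraries and went opposite ways in the subunits. In MED1 it stood at 85.1 and 90.6 at 2 h against 93.2 and 93.5 at 0 h, and in MED24 at 95.7 and 94.5 at 2 h against 90.3 and 84.7 at 0 h. A weak region inside the gene (chr7:25242977-25243387) was lost in MED24, from 9.14 and 5.09 at 0 h, and in MED1 was called at 0 h in clone a alone, at 0.814.

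Calls in the subunits overlapped about as often at members as elsewhere. Of the 27 MED1 regions gained at members, 17 overlapped a gained MED24 region (63.0%, against 62.0% of all gained MED1 regions), and of the 23 gained MED24 regions 17 overlapped a gained MED1 region (73.9%, against 67.6% of all). Of the lost regions, 2 of 4 in MED1 and 2 of 5 in MED24 overlapped a lost one of the other subunit, where 44.5% and 34.3% of all lost regions did. Both pairs were at Etv5. Of the retained regions, 22 of 24 in MED1 and 24 of 27 in MED24 overlapped a retained one, where 84.7% and 80.4% of all did. Most gained regions stood below percentile 90 in at least 1 of the 2 h libraries. In MED1, 4 of 27 (14.8%) stood at or over it in both, where 7.52% of all gained MED1 regions did. These were 2 in the 3′ part of Etv6, the one inside Etv4 and the one upstream of Ets2. In MED24, 2 of 23 did (8.70%, against 6.74% of all gained MED24 regions).

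Regions retained at members showed no common direction. The mean shift, 2 h minus 0 h within a clone and averaged, was −2.18 percentile points over 24 MED1 regions (−2.76 in clone a and −1.60 in clone b), with a median of −5.04 beside −3.21 over all retained MED1 regions. Of these, 6 stood higher in both clones (24.7% of all retained regions did) and 8 lower (43.8% of all did). Over 27 MED24 regions the mean was 3.92 and the median 0.15, beside a median of −0.26 over all, with 13 higher and 10 lower, where 34.5% and 36.4% of all were. The MED24 mean changed sign when the 2 h library of clone b was left out (−1.29) and with 20000 peaks per library (−7.70). All 6 MED1 regions that stood higher in both clones belonged to PEA3 genes, 2 each at Etv1, Etv4 and Etv5. PEA3 genes also held 14 of the 24 retained MED1 regions, and 5 of the 8 that stood lower, all at Etv5. In MED24, 6 of the 13 higher and 6 of the 10 lower regions were at PEA3 genes. Among 24 pairs of overlapping regions retained in both subunits, 11 moved the same way in both clones of both subunits, 2 moved opposite ways and 11 were mixed. Over all 17416 such pairs, 44.5% moved the same way and 7.99% opposite ways, so the members' counts were near the background.

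**Figure D4:**
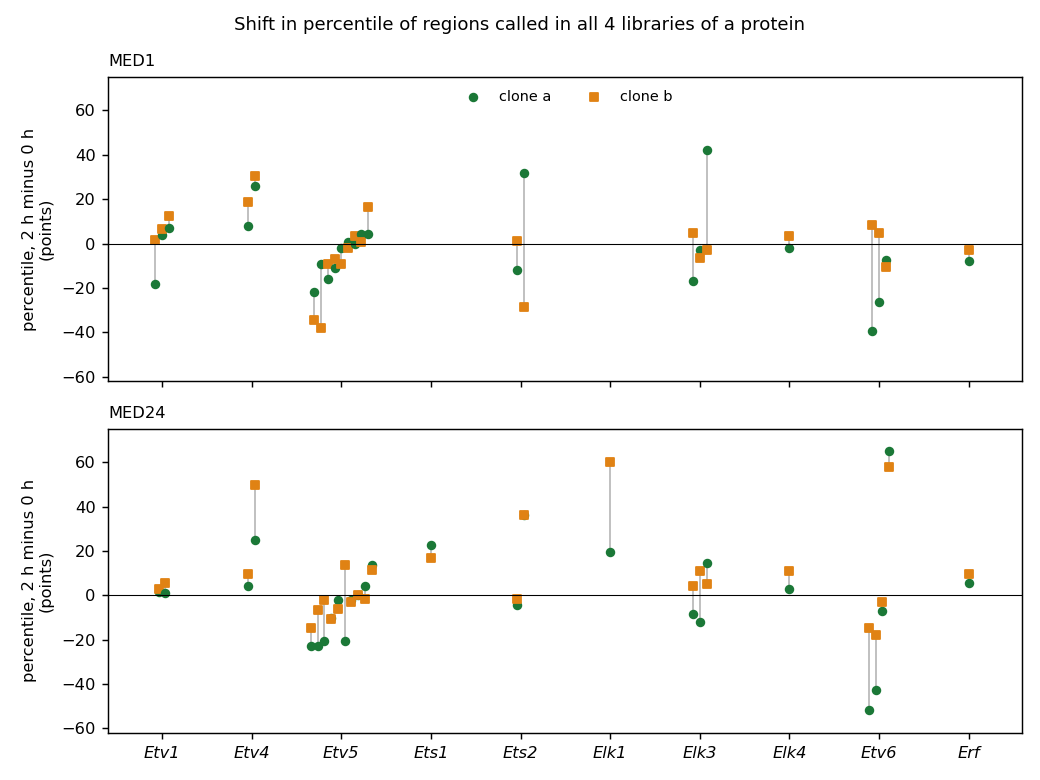
Points give the percentile shift of each region retained at a member gene, 2 h minus 0 h in percentile points, for MED1 (upper panel) and MED24 (lower panel), with clone a as green circles, clone b as orange squares and a line joining the clones of 1 region. Etv4 regions lie above 0 in both clones of both subunits, and the Etv6 region at 228 kb, retained in MED24, has the largest mean shift drawn, 61.4.

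The shares at members were set beside those at related genes. At 17 other ETS family genes, 12 of 54 MED1 regions were gained and 4 lost (22.2% and 7.41%), and 11 of 64 MED24 regions were gained and 5 lost (17.2% and 7.81%). Elf1, an activator of the family, had the largest surplus there, with 4 gained and 1 lost MED1 regions and 2 gained and 0 lost MED24 regions, while Spi1 and Spic, factors of blood cells, each had 1 lost and 0 gained in both subunits. At 8 partners and regulators of the members, 7 of 36 MED1 regions were gained and 4 lost (19.4% and 11.1%), and 5 of 36 MED24 regions were gained and 6 lost (13.9% and 16.7%). Among these, Mrtfb, a coactivator of SRF, had 3 gained and 0 lost in MED1 and 1 of each in MED24, and Srf itself had 2 gained and 1 lost in MED1 and 1 gained and 0 lost in MED24. Cop1, a ubiquitin ligase known to act on PEA3 factors, had 0 gained with 1 lost in MED1 and 2 lost in MED24, and Cic, the repressor of PEA3 genes, had 1 gained and 1 lost in MED1 and 1 gained and 2 lost in MED24. Whether members differ from these lists was not tested. Of 1519 genes with at least 8 regions in each subunit, those most like Etv5 in the 6 shares gained, lost and retained in MED1 and MED24 were Glod5, Sh3d19 and Cadps2, at Euclidean distances of 7.44, 8.06 and 8.38 percentage points.

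The labelled cell type was checked through peaks at marker genes. All 6 embryonic stem cell marker genes (Pou5f1, Sox2, Nanog, Esrrb, Klf4 and Zfp42) had regions, 107 in MED1 and 100 in MED24. In MED1, 54 and 57 of these were called at 2 h, against 67 and 71 at 0 h, and in MED24 61 and 69 at 2 h, against 67 and 64 at 0 h, where the groups overlapped. Of the 4 primitive endoderm markers 3 had regions, 9 in MED1 and 7 in MED24, and the 4 fibroblast markers had 10 and 11. Primitive endoderm marker regions called in MED1 were 3 and 7 at 2 h, against 4 and 4 at 0 h. In MED24 they were 4 and 4 at 2 h, against 4 and 5 at 0 h. Fibroblast marker regions called in MED1 were 7 and 6 at 2 h, against 1 and 4 at 0 h, and in MED24 7 and 7 at 2 h, against 4 and 3 at 0 h. The differences at fibroblast markers run in the same direction as at the members, and their part in the result was not tested.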

How the data were processed

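MED1 and MED24 were mapped in 8 ChIP libraries, and the 4 inputs are not analysed here. Groups and clones came from the sample titles. Bowtie2, MACS2 and bedtools are the tools, and mm10 the build, in the submitters' processing notes. Not given in the sources used here were versions, settings and how the inputs were used. A separate peak list was deposited for each library. The score, the fold enrichment (a ratio), the −log10 p-value and the −log10 q-value of each MED1 peak are the authors' own, as deposited in narrowPeak layout. For MED24 the authors deposited a score alone, read here as in MED1, where it was 10 times the −log10 q, rounded down. That reading is not stated in the MED24 lists, whose peak names carry a folder name of EP300, and the labels were followed. The lowest score over all lists was 20. Lists hold no read numbers, so depth is unknown, and the 2 clones a group limit precision. A region took the value of its best peak.

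Regions were assigned to gene spans of RefSeq GRCm38.p6, and ties were kept. Calls and bases per library were compared by exact permutation tests, with Python 3.11.15, pandas 2.3.3, NumPy 2.4.6 and SciPy 1.17.1. The merging and counting were checked on simulated lists. Same-lettered libraries come from the same clone, which pairs them, and shifts were taken within clones. The permutation tests left this pairing out, and their p sits at its smallest possible value, 0.333, whenever the groups are fully apart. Nothing says that the clones were independent cultures per antibody, so p-values describe the order of these libraries alone.

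All 10 members are described. Named regions are, per member and subunit, up to 3 gained, 3 lost and 3 retained regions with the largest shift each way, and the best ranked one. The members, the lists of related and marker genes and the alternatives were chosen with earlier results of these data known. Alternatives were the distance limit and its reference point, ties, peak threshold, list length, merging, rank measure, each library or Etv6 left out, and clone as a block.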

Additional observations from a re-analysis of the deposited data

Results flagged for a closer look

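At 2 places retained in all 8 libraries, both clones moved one way in MED1 and the opposite way in MED24, a difference between subunits that was not tested. The Erf promoter region (chr7, start 25248790) had a shift of −5.48 percentile points in MED1, and the MED1 shift minus the MED24 shift was −13.0. The Etv5 region at chr16:22436234-22436543, inside the gene near its start, stood at 14.0 and 7.80 at 2 h against 23.4 and 45.8 at 0 h in MED1, and at 67.9 and 64.0 at 2 h against 54.4 and 52.6 at 0 h in MED24, so that the MED1 shift minus the MED24 shift was −36.1. MED1 was ranked by −log10 p and MED24 by score, which may order peaks differently.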

How the results depend on the processing

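Of 197 alternative values of 14 results, 160 kept their direction without moving past the limits set, 29 moved and 8 changed sign. For gained and lost counts the limit was 1.5 times. The 160 include every alternative of the differences in regions called and kb covered, and some of these were much smaller than reported. In MED1 the difference in regions called was 3 with 20000 peaks (26 as reported). By nearest transcription start site, the MED1 kb difference was 1.84 (11.7 as reported). The MED24 gained excess with 20000 peaks, 0.60 points (9.01 as reported), also counted as kept. The differences in regions called and in kb covered at members stayed positive under every alternative run, with no p that could pass the threshold of 0.05. With the distance taken to the nearest transcription start site, 15 MED1 and 14 MED24 member regions were gained, the MED1 lost share lay 1.03 points above that of all regions (−2.03 as reported), and the mean shifts of retained regions were −3.81 in MED1 and −0.70 in MED24. By construction that setting drops the far Etv6 regions and, with no listed start, Etv4 and Ets1. The gained excess was then 6.22 points in MED1 (15.3 as reported) and 2.68 in MED24 (9.01 as reported). With a score of at least 100, 15 and 13 regions were gained and the shifts were 3.45 and −1.39. The gained excess was 4.40 points in MED1 and 2.03 in MED24. With 20000 peaks per library, 8 and 8 were gained and the shifts were −3.98 and −7.70. The gained excess was −1.51 points in MED1 and 0.60 in MED24. With 10000 peaks, 6 and 7 were gained, 1 and 3 were lost, the MED1 lost difference was −10.7 points and the shifts were −5.57 and −2.95. The gained excess was 6.92 points in MED1 and 6.17 in MED24. Without Etv6, 16 MED1 regions were gained and 2 lost, and the MED1 shift was −0.80. Ranked by fold enrichment, the MED1 shift was −3.35. With the replicate block by clone, 9.5 MED1 and 13.5 MED24 regions were lost, since 1 clone then suffices for a call. The MED1 lost difference was then −6.13 points. The block was run for the gained and lost results alone, and it changed no other of these past the limits set. Leaving out 1 library at a time gave 4 to 12 lost regions in MED1 and 6 to 14 in MED24, both highest without the 0 h library of clone b, a MED1 lost difference between −5.93 and −1.36 points, and shifts between −4.00 and −1.12 in MED1 and between −1.29 and 7.56 in MED24, lowest without the 2 h library of clone b. The cause of these movements was not tested where none is named. Depth is unknown, and a weak peak that misses the threshold in 1 library counts as uncalled.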
